A study of Mus musculus with 9 samples.

Results

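The transcripts examined here belong to 34 genes for voltage-gated and related ion channels: the coding genes whose symbols begin with Kcn, Cacn or Scn and that had 10 or more read counts in at least 3 of 9 libraries of mouse embryonic fibroblasts (MEFs). They are 34 of the 137 coding genes with such symbols among the 47937 genes counted, so 103 did not reach this level. Of all 137, 48 had no count in any library, and 82, these 48 included, had 3 counts or fewer in every library. Kcnq1ot1, a noncoding RNA, and Scnm1, a splicing factor gene, carry similar names and were left out.

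Total RNA was sequenced from fibroblast lines that lack enzymes methylating lysine 9 of histone H3, a mark of silent chromatin. Every line, the controls included, derives from E1c, 1 clone of MEFs in which Eset1 (Setdb1) can be deleted by a tamoxifen-inducible Cre, and the labels give standard medium as the growth condition. WT is E1c itself. S1S2 is clone B1, in which CRISPR/Cas9 disrupted Suv39h1 and Suv39h2, and G9Gl is clone H7, in which it disrupted G9a (Ehmt2) and Glp (Ehmt1). Both were chosen because western blots showed no protein of the targeted genes. According to the methods, a construct with tamoxifen-inducible Cre and puromycin resistance was put back after gene disruption, under constant puromycin. With 1 clone per mutant, genotype and clone cannot be told apart. Each line has 3 libraries, described as biological replicates, so the spread and the p-values are those between cultures of 1 clone.

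Voltage-gated channels are membrane proteins that open when the membrane potential changes and let calcium (Cav), sodium (Nav) or potassium (Kv) ions through. A pore subunit sets the ion and the gating, and auxiliary subunits set how much channel reaches the membrane and how it opens. Other potassium channels open on calcium or at rest. Such channels are best known for electrical signalling in nerve and muscle, but non-excitable cells such as fibroblasts also use them, for calcium entry and to hold the resting potential.

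The libraries held 21319778 to 32157623 gene counts. A count of 3, taken as the limit of detection per library, equals 0.0923 to 0.141 CPM (the usual unit of counts relative to library size, here scaled by TMM factors). These limits cover counting error only. The targeted genes, still transcribed from disrupted alleles, had log2 fold changes of -1.36 for Suv39h1 and 0.70 for Suv39h2 in S1S2, and of -1.20 for Ehmt2 and -1.04 for Ehmt1 in G9Gl. Suv39h2 mRNA was thus higher in the line labelled as lacking its product, and mRNA levels do not check a disruption that leaves the transcript in place. Levels in bulk RNA cannot separate fewer cells of a kind from less RNA per cell.

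Of the 34 genes, 23 had 10 counts or more in every library. In all 3 libraries of a line, this level was reached by 27 genes in WT, 29 in S1S2 and 29 in G9Gl, and 9 genes were at it in every library of 1 line and in no library of another. Cacna1e, Kcna4, Kcnk10 and Scn2a met the rule through the G9Gl libraries alone. A gene that is detected only where it is high had to differ, so counts over the set describe it and do not support anything about it. Kcna4 stood just inside the limit, with 12, 10 and 12 counts in G9Gl, 8, 4 and 7 in WT and 3 in each S1S2 library. Just outside stood Kcnj15 with 22, 19 and 8 counts in G9Gl and none in WT or S1S2, and Cacnb4 with 14, 10 and 9 counts in S1S2.

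A gene was called where edgeR's quasi-likelihood test, adjusted by Benjamini-Hochberg over all 15540 genes with enough counts, gave an adjusted p no higher than 0.01 and where it differed by 2-fold or more. In S1S2 against WT, 11 of the 34 channel genes were called (32.4%), where 9.0% of all tested genes were. Of these 11, 5 rose (the share of all tested genes was 4.66%) and 6 fell (4.34%). In G9Gl against WT, 14 were called (41.2%, against 10.2% of all genes), 7 higher (6.77%) and 7 lower (3.40%). Between the mutants, 18 were called (52.9%, against 13.1%), 9 higher in G9Gl (7.97%) and 9 lower (5.08%). The higher calls in G9Gl include Cacna1e, Kcnk10 and Scn2a, and those between the mutants also Kcna4. These genes were detected through the G9Gl libraries alone, so the rule favoured such calls, and shares without them are not given here. At any fold change, an adjusted p of at most 0.01 was met by 18, 18 and 20 channel genes in these 3 comparisons, beside 37.9%, 35.0% and 42.6% of all genes. In every called gene the 3 libraries of one line lay wholly above or below the 3 of the other. A call at these limits leaves little room for overlap, so this describes the calls and adds no support.

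Medians over the set are given as a description. The median log2 fold change of the 34 genes was 0.25 in S1S2, -0.11 in G9Gl and -0.12 between the mutants, with medians over all tested genes within 0.01 of 0. The median size without sign was 0.69, 0.78 and 1.34, against 0.25, 0.22 and 0.26 over all tested genes. Cacna1e and Kcnk10 had at most 1 count in any WT library, where a fitted fold depends on the added prior count. Without them the medians were 0.09, -0.16 and -0.17, and the sizes 0.68, 0.61 and 1.21. Called in at least 1 comparison were 21 genes, and 13 in none. Both mutants were set against the same 3 WT libraries, so their differences from WT are given side by side and their likeness was not tested.

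**Figure D1:**
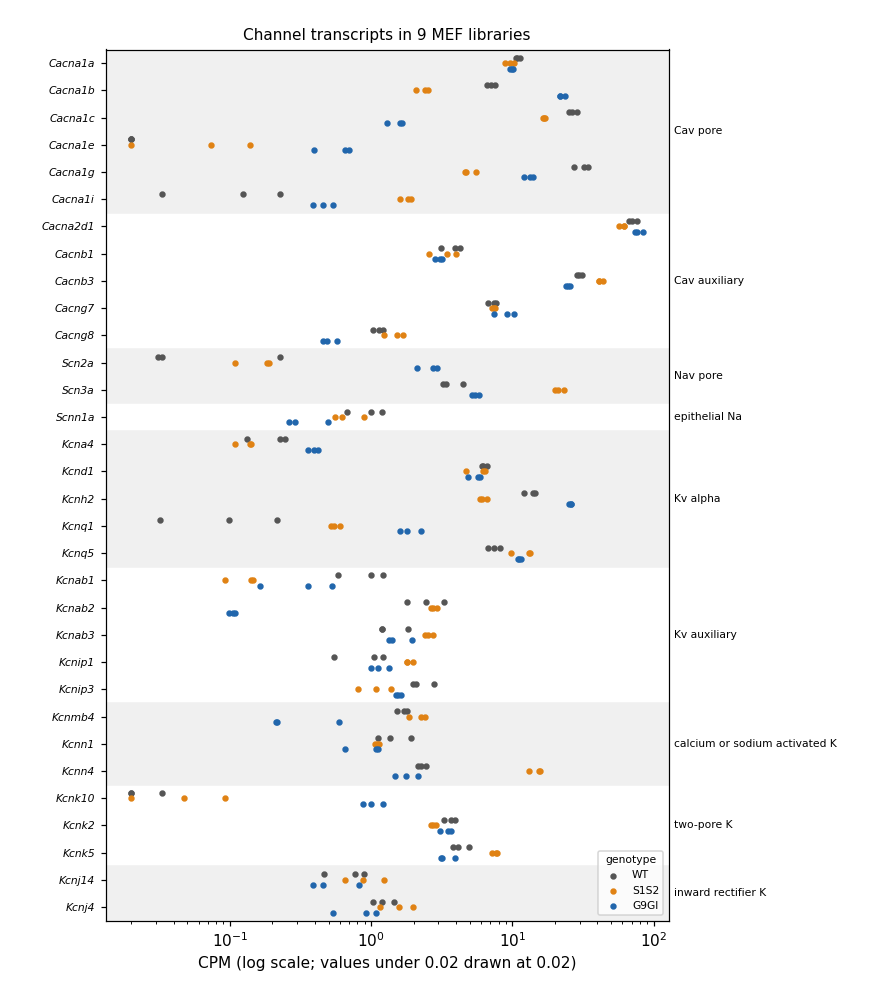
CPM (log axis) of 32 of the 34 channel genes in each of the 9 libraries, grouped by role, 1 point per library and 1 colour per line; values under 0.02 CPM are drawn at 0.02. In Cacna1b and Kcnh2 the 3 S1S2 points lie below and the 3 G9Gl points above the WT points.

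RefSeq promoter windows (GRCm38.p6, 250 bases before to 50 after a transcription start) were found for 24 of the 34 genes, 43 windows in all. Genes without a window included Cacna1a, Cacna1g, Kcnab3, Kcnd1, Kcnj14, Kcnq1, Scn3a and Scnn1a. The windows of 5 genes with a single start are shown, because these genes moved in different ways. No gene called lower in G9Gl is among them. Cacna1b and Kcnh2 were lower in S1S2 and higher in G9Gl, Kcnn4 rose in S1S2, Cacna1i rose in both mutants, and Cacna1e was detected in G9Gl. Each sequence runs 5′ to 3′ on the gene's strand, with CpG dinucleotides, the main sites of DNA methylation in mammals, in capitals. The Kcnh2 and Cacna1e windows lie inside the longer GENCODE gene models given further on, at a start other than the outermost.
Cacna1b, chr2:24763103-24763402, minus strand: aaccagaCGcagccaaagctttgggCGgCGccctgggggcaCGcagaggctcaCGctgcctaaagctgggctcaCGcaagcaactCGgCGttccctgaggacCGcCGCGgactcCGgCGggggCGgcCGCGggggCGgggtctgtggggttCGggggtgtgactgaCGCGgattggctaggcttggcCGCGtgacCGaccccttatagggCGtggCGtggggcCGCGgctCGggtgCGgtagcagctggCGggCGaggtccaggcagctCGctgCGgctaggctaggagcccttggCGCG
Kcnh2, chr5:24329542-24329841, minus strand: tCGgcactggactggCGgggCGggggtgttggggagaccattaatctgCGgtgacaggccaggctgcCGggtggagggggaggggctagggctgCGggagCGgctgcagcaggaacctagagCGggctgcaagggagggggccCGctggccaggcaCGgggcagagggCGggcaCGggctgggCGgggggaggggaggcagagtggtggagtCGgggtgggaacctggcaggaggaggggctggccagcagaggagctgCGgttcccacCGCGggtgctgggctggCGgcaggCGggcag
Kcnn4, chr7:24370013-24370312, plus strand: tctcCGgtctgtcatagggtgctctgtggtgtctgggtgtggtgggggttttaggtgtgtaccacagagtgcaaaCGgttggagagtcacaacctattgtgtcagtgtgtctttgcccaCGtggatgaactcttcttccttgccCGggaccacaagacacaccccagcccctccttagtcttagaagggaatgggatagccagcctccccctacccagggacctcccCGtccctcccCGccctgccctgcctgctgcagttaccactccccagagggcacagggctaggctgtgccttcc
Cacna1i, chr15:80286988-80287287, plus strand: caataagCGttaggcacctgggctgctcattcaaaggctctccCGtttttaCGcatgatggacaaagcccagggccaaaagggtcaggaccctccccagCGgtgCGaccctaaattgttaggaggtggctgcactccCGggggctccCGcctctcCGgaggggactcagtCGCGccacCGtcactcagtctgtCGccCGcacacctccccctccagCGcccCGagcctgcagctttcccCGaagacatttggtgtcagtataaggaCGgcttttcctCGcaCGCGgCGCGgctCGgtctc
Cacna1e, chr1:154725871-154726170, minus strand: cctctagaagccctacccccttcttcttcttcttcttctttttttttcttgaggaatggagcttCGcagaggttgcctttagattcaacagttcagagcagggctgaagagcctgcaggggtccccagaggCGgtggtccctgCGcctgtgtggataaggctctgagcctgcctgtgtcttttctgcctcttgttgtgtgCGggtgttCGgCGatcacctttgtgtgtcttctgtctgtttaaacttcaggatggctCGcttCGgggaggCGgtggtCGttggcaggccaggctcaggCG

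The windows differ in CpG content. The Cacna1b window holds 35 CpGs, an observed-to-expected ratio of 0.922 given its base composition, which is the range of a CpG island. Cacna1i holds 23 (0.794), Kcnh2 19 (0.555), Cacna1e 11 (0.482) and Kcnn4 6 (0.226). Genes that rose in S1S2 thus included both a CpG-rich and a CpG-poor window. Over all 43 windows of detected channel genes the median ratio was 0.482, against 0.75 for windows of all tested genes and 0.409 for those of channel genes under the detection limit. The RE1 element, bound by the neuronal repressor REST, was searched by its conserved parts AGCACC and GGACAG on both strands. The first was in 18.6% of the channel windows and 16.2% of all 32851 windows, the second in 27.9% and 22.2%, and both together in 0 of 43 and 3.88%. These matches describe letters within 300 bases and say nothing of REST binding. Rest mRNA stood at a mean of 150.4 CPM in WT, 148 in S1S2 and 181 in G9Gl.

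Of 10 pore genes of voltage-gated calcium channels, 6 were detected. In S1S2, 1 rose and 2 fell, and in G9Gl, 3 rose and 2 fell. Cacna1g (chr11:94408391-94474198, GRCm38, as are all gene positions), the T-type channel Cav3.1 that opens at low voltage, had 32.1, 34.4 and 27.5 CPM in WT, 4.60, 4.70 and 5.55 CPM in S1S2 and 13.4, 14.0 and 12.1 CPM in G9Gl. The 3 lines did not overlap, with WT highest and S1S2 lowest. The difference from WT was a log2 fold change of -2.67 ± 0.127 (SE, 3 libraries against 3, edgeR adjusted p = 1.62e-12) in S1S2 and a log2 fold change of -1.25 ± 0.114 (SE, edgeR adjusted p = 2.95e-09) in G9Gl.

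Cacna1i (chr15:80287238-80398279), the T-type paralog Cav3.3, moved the other way. It had 0.123, 0.0331 and 0.226 CPM in WT, 1.61, 1.82 and 1.93 CPM in S1S2 and 0.386, 0.539 and 0.457 CPM in G9Gl. All WT libraries lay below all others, and the S1S2 libraries were highest. In S1S2 this was a log2 fold change of 3.76 ± 0.443 (SE, edgeR adjusted p = 3.05e-07). In G9Gl it was a log2 fold change of 1.81 ± 0.453 (SE, edgeR adjusted p = 0.00395), on 11, 15 and 14 counts. That second call was lost on leaving out G9Gl replicate 2, G9Gl replicate 3, WT replicate 1 or WT replicate 2, with adjusted p between 0.012 and 0.0207. It was also lost in glmTreat, edgeR's test of whether a change exceeds 2-fold (adjusted p = 0.18). Without WT replicate 3, the highest of the WT libraries, the log2 fold changes were 4.41 in S1S2 and 2.47 in G9Gl. Both SEs are taken with a prior count of 2, which narrows the spread at WT counts of 4, 1 and 7.

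Cacna1c (chr6:118587240-119196418), the L-type channel Cav1.2 of heart and smooth muscle, had 25.4, 28.6 and 26.3 CPM in WT, 17.1, 16.4 and 16.8 CPM in S1S2 and 1.65, 1.29 and 1.60 CPM in G9Gl. No lines overlapped, and G9Gl stood far below both others. The difference from WT was a log2 fold change of -4.14 ± 0.117 (SE, edgeR adjusted p = 2.07e-15) in G9Gl. In S1S2 it was a log2 fold change of -0.67 ± 0.0537 (SE, edgeR adjusted p = 9.32e-07), under the fold limit.

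Cacna1b (chr2:24603887-24763152), the N-type channel Cav2.2 of nerve terminals, had 7.57, 7.11 and 6.64 CPM in WT, 2.39, 2.08 and 2.54 CPM in S1S2 and 21.7, 21.9 and 23.4 CPM in G9Gl. The lines did not overlap, with S1S2 lowest and G9Gl highest. Against WT the values were a log2 fold change of -1.61 ± 0.0992 (SE, edgeR adjusted p = 5.47e-09) in S1S2 and a log2 fold change of 1.65 ± 0.0641 (SE, edgeR adjusted p = 4.26e-11) in G9Gl, and G9Gl exceeded S1S2 by a log2 fold change of 3.27 ± 0.0901 (SE, edgeR adjusted p = 5.72e-14). The gene lies 26.8 kb from Ehmt1, 1 of the 2 genes disrupted in G9Gl, on the same strand of chromosome 2. Ehmt1 itself had a mean of 104 CPM in WT, 89.2 in S1S2 and 50.2 in G9Gl, and any part of the edited locus in the Cacna1b result was not tested.

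The remaining calcium pore genes were Cacna1a and Cacna1e. Cacna1a, the P/Q-type channel Cav2.1, stood at 10.6 to 11.4 CPM in WT, 8.89 to 10.3 in S1S2 and 9.66 to 10.2 in G9Gl and was called in no comparison. Cacna1e (chr1:154390731-154884501), the R-type channel Cav2.3, had no count in WT, 3, 2 and 0 counts in S1S2 and 20, 11 and 20 in G9Gl. Taking 3 counts per library as the limit in WT, G9Gl was at least 6.07-fold higher, and the call had an edgeR adjusted p of 2.15e-05. Per kilobase it remained the second lowest of the detected channel genes in G9Gl.

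Summed per kilobase of exon, the 6 calcium pore genes gave 6.04 ± 0.379 RPKM (CPM divided by exon length in kilobases, SD, n = 3) in WT, 2.54 ± 0.0503 in S1S2 and 4.56 ± 0.0171 in G9Gl. Their make-up differed between lines by more than the spread within them. Cacna1g made up 51.1% ± 2.65 of the sum in WT, 19.2% ± 1.91 in S1S2 and 28.5% ± 2.18 in G9Gl. Cacna1c held 20.9% ± 1.16, 31.1% ± 0.258 and 1.57% ± 0.202. Cacna1b held 11.8% ± 0.688, 9.23% ± 0.773 and 49.3% ± 1.92, so that the leading calcium pore transcript of G9Gl was Cacna1b, in place of Cacna1g in WT. In S1S2 the leading pair were Cacna1a at 33.2% ± 2.57 and Cacna1c, whose libraries overlapped. Shares sum to a fixed total, so one rises when another falls.

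**Figure D2:**
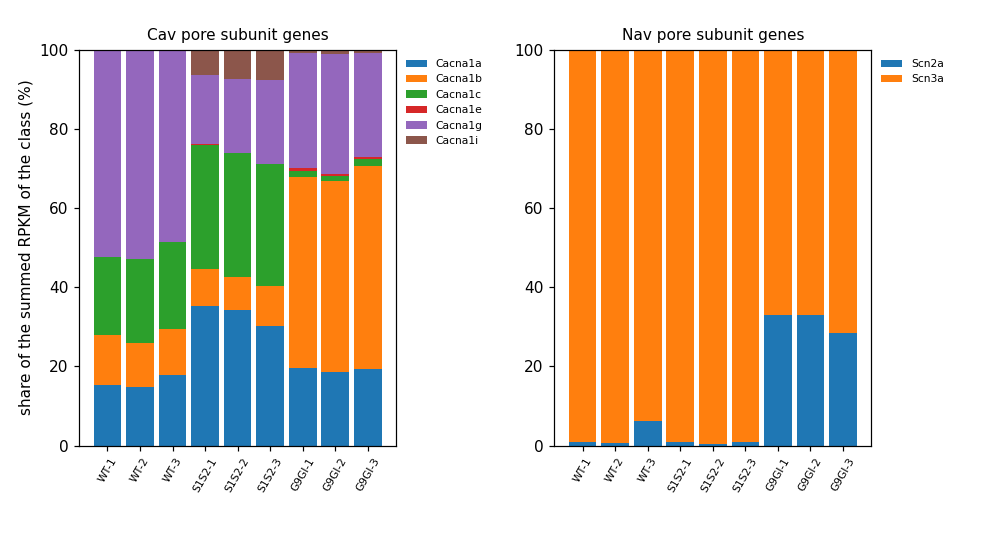
Share (%) of each gene in the summed RPKM of its class, 1 bar per library, for calcium (Cav) pore and sodium (Nav) pore genes. Cacna1b takes 48.1 to 51.5% of the calcium class in G9Gl, and Scn2a takes 28.4 to 33.0% of the sodium class in G9Gl.

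Of 16 auxiliary calcium channel genes 5 were detected, and in S1S2 edgeR called 0 of them (2 had an unadjusted p under 0.05, and DESeq2 called 0). In G9Gl, 1 was called. Cacnb3, a beta subunit that brings the pore to the membrane, was the channel gene with the highest level per kilobase in WT, at 7.40 ± 0.280 RPKM (SD, n = 3). It had 30.9, 29.4 and 28.7 CPM in WT, 41.4, 43.9 and 41.2 CPM in S1S2 and 25.6, 24.8 and 24.0 CPM in G9Gl. No lines overlapped, and S1S2 was highest and G9Gl lowest. The values were a log2 fold change of 0.51 ± 0.0427 (SE, edgeR adjusted p = 8.76e-07) in S1S2 and a log2 fold change of -0.26 ± 0.0411 (SE, edgeR adjusted p = 0.00119) in G9Gl, both under the fold limit.

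Cacna2d1, the alpha2-delta subunit that binds gabapentin, stood second in WT at 5.72 ± 0.391 RPKM. It had 70.5, 66.5 and 76.2 CPM in WT, 56.7, 61.5 and 62.2 CPM in S1S2 and 84.5, 76.5 and 74.3 CPM in G9Gl. S1S2 lay below both other lines by a log2 fold change of -0.24 ± 0.0704 (SE, edgeR adjusted p = 0.00353) against WT, and G9Gl overlapped WT. Cacnb1, the beta subunit of skeletal muscle channels, stood at 2.59 to 4.23 CPM in all lines, which overlapped.

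Cacng7 and Cacng8 are neighbours, 22.5 kb apart on chromosome 7, whose products are best known as partners of AMPA-type glutamate receptors. Cacng8 (chr7:3390683-3415648) had 1.14, 1.22 and 1.03 CPM in WT, 1.24, 1.53 and 1.69 CPM in S1S2 and 0.456, 0.575 and 0.490 CPM in G9Gl. G9Gl lay below both other lines, with a log2 fold change of -1.15 ± 0.109 (SE, edgeR adjusted p = 0.00134) against WT. Tested against the 2-fold limit itself (glmTreat), the calls were lost against WT (edgeR adjusted p = 1.0) and against S1S2 (0.063). Cacng7, at 6.74 to 10.2 CPM, overlapped between all lines and was not called.

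Of 10 sodium channel pore genes 2 were detected, Scn3a and Scn2a, which lie 53.1 kb apart, start to start, at one end of a cluster of 5 on chromosome 2. Both encode channels of the brain (Nav1.3 and Nav1.2), Scn3a that of the embryo. Scn3a (chr2:65457118-65567627) had 3.23, 4.46 and 3.42 CPM in WT, 20.1, 23.4 and 21.0 CPM in S1S2 and 5.44, 5.78 and 5.22 CPM in G9Gl. S1S2 was far above both others and no lines overlapped. In S1S2 the difference from WT was a log2 fold change of 2.54 ± 0.155 (SE, edgeR adjusted p = 9.03e-12), and in G9Gl a log2 fold change of 0.57 ± 0.147 (SE, edgeR adjusted p = 0.00144), under the fold limit.

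Scn2a (chr2:65620771-65767447) had 0.0308, 0.0331 and 0.226 CPM in WT, 0.184, 0.109 and 0.188 CPM in S1S2 and 2.74, 2.91 and 2.12 CPM in G9Gl. It was high in the 3 G9Gl libraries alone, with 78, 81 and 65 counts, against 1, 1 and 7 in WT and 4, 3 and 4 in S1S2. The ratio of G9Gl to WT was 26.8 (95% exact counting interval 13.9 to 59.5, edgeR adjusted p = 3.13e-08). WT replicate 3 held 7 of the 9 WT counts, and without it the fitted log2 fold change went from 4.69 to 6.15. Scn1a, next in the cluster, had at most 2 counts in a library, and Scn9a and Scn7a had none. Of all 75-base stretches of their transcripts, 2.80% of Scn2a and 3.85% of Scn3a also occur in another gene, so reads that fit both could be few. Scn3a made up 97.4% ± 3.03 of the summed sodium pore RPKM in WT, 99.3% ± 0.243 in S1S2 and 68.5% ± 2.63 in G9Gl.

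**Figure D3:**
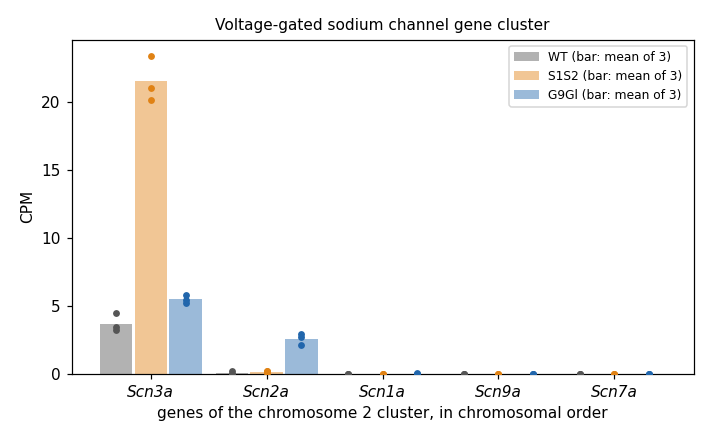
CPM of the 5 voltage-gated sodium channel genes of the chromosome 2 cluster in chromosomal order, with 1 point per library and a bar at the mean of 3. Scn3a reaches 20.1 to 23.4 CPM in S1S2, Scn2a 2.12 to 2.91 CPM in G9Gl, and the other 3 genes stay at 0.0653 CPM or less.

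Scnn1a, the alpha subunit of the epithelial sodium channel, which is not voltage-gated, had 0.677 to 1.20 CPM in WT, 0.552 to 0.893 in S1S2 and 0.261 to 0.491 in G9Gl. Its difference in G9Gl was a log2 fold change of -1.46 ± 0.326 (SE, edgeR adjusted p = 0.00221), and the call was lost without G9Gl replicate 2, G9Gl replicate 3 or WT replicate 1 (adjusted p 0.0129 to 0.0177) and in glmTreat (0.369).

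Of 40 Kv alpha genes, the pores of voltage-gated potassium channels, 6 were detected. Kcnh2 (chr5:24319589-24351604), the hERG channel that repolarises heart muscle, had the highest level per kilobase of the potassium channel genes in WT, at 2.78 ± 0.252 RPKM. It had 14.4, 12.1 and 13.9 CPM in WT, 6.57, 5.87 and 6.07 CPM in S1S2 and 25.0, 26.2 and 26.1 CPM in G9Gl. No lines overlapped, and S1S2 was lowest and G9Gl highest. The difference was a log2 fold change of -1.13 ± 0.0906 (SE, edgeR adjusted p = 1.88e-08) in S1S2 and a log2 fold change of 0.93 ± 0.0798 (SE, edgeR adjusted p = 1.83e-08) in G9Gl, where it missed the fold limit. The S1S2 call was lost in glmTreat (edgeR adjusted p = 0.365).

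Kcnq1 (chr7:143106362-143427042), the slow delayed rectifier of heart and epithelium, rose in both mutants. It had 0.215, 0.0992 and 0.0322 CPM in WT, 0.598, 0.547 and 0.517 CPM in S1S2 and 1.79, 2.26 and 1.60 CPM in G9Gl. No lines overlapped, with WT lowest and G9Gl highest. In S1S2, on 13, 15 and 11 counts, this was a log2 fold change of 2.20 ± 0.427 (SE, edgeR adjusted p = 0.00103), and in G9Gl a log2 fold change of 3.95 ± 0.446 (SE, edgeR adjusted p = 1.32e-07). The WT libraries had 7, 3 and 1 counts, and without WT replicate 1 the log2 fold changes were 2.99 and 4.75. At such counts the prior count used for the SEs narrows them. The S1S2 call was lost in glmTreat (edgeR adjusted p = 0.0554). Kcnq1ot1, an imprinted RNA from the opposite strand at means of 361 CPM in WT, 311 in S1S2 and 380 in G9Gl, overlaps 2.96% of the Kcnq1 exons. The library kit keeps strand, but whether the counting used it is not given in the sources used here, so reads from Kcnq1ot1 cannot be told apart from Kcnq1 in the overlap. Its own log2 fold changes were -0.22 in S1S2 and 0.07 in G9Gl.

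Kcnq5, a channel of the M-current, had 8.15, 7.41 and 6.74 CPM in WT, 13.2, 13.3 and 9.78 CPM in S1S2 and 11.2, 11.5 and 11.0 CPM in G9Gl. Both mutants lay above WT and overlapped each other. The differences from WT were a log2 fold change of 0.70 ± 0.164 (SE, edgeR adjusted p = 6.77e-05) in S1S2 and a log2 fold change of 0.59 ± 0.0803 (SE, edgeR adjusted p = 0.000336) in G9Gl, under the fold limit. Kcnd1, the A-type channel Kv4.1, stood at 4.69 to 6.61 CPM over all libraries and was not called. Kcna4, the A-type channel Kv1.4, was called between the mutants alone, where the ratio of G9Gl to S1S2 was 3.06 (95% counting interval 1.44 to 7.26, edgeR adjusted p = 0.0084). This call was lost on leaving out any of the 6 libraries compared (adjusted p 0.0163 to 0.0449), in DESeq2 (0.0535) and in glmTreat (0.338). It was also lost in edgeR with all genes of any count kept (0.0324) and with a replicate block (0.016).

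Of 13 genes for Kv auxiliary subunits 5 were detected, and 2 fell in each mutant. The cytoplasmic beta subunits split. Kcnab2 (chr4:152390742-152477871) had 1.78, 2.45 and 3.25 CPM in WT, 2.94, 2.66 and 2.73 CPM in S1S2 and 0.105, 0.108 and 0.0979 CPM in G9Gl. The 3 G9Gl libraries had 3 counts each, the limit of detection, and lay below all others, while WT and S1S2 overlapped. The ratio of WT to G9Gl was 24.0 (95% counting interval 12.4 to 53.2, edgeR adjusted p = 9.97e-09). Kcnab1 (chr3:65109384-65378223), at 19, 37 and 31 counts in WT, had 2, 4 and 3 in S1S2 and 15, 10 and 5 in G9Gl. WT was highest without overlap. The ratio of WT to S1S2 was 7.26 (3.65 to 16.4, edgeR adjusted p = 0.000151). In G9Gl the difference was a log2 fold change of -1.42 ± 0.491 (SE, edgeR adjusted p = 0.00591), a call lost in DESeq2 (adjusted p 0.0158), in a fit of the 6 libraries alone (0.0104) and without G9Gl replicate 2 or 3 or WT replicate 2 or 3 (0.0163 to 0.0441), and in glmTreat (0.547).

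Kcnip3 (chr2:127456498-127522094), a calcium-binding partner of Kv4 pores, had 2.77, 1.98 and 2.06 CPM in WT, 1.38, 0.802 and 1.08 CPM in S1S2 and 1.51, 1.54 and 1.63 CPM in G9Gl. S1S2 lay below WT and G9Gl between them. The difference in S1S2 was a log2 fold change of -1.08 ± 0.258 (SE, edgeR adjusted p = 0.000821). Without S1S2 replicate 2 or WT replicate 1 the log2 fold change was -0.89 or -0.92, under the fold limit, and the call was lost in glmTreat (edgeR adjusted p = 1.0). Its paralog Kcnip1 stood at 0.548 to 1.22 CPM in WT and 1.79 to 1.98 in S1S2, without overlap, by a log2 fold change of 0.97 ± 0.328 (SE, edgeR adjusted p = 0.00463), and passed the fold limit without WT replicate 1 (1.06) or WT replicate 2 (1.20). Kcnab3, the remaining beta subunit gene, differed in S1S2 by 0.86 on the log2 scale and reached the limit without WT replicate 2 (1.09).

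Of 12 genes for potassium channels that open on calcium or sodium and their subunits, 3 were detected. Kcnn4 (chr7:24370263-24386690), the intermediate-conductance channel KCa3.1 known from lymphocytes, red cells and proliferating fibroblasts, had 2.15, 2.45 and 2.26 CPM in WT, 15.5, 15.8 and 13.0 CPM in S1S2 and 1.47, 2.15 and 1.76 CPM in G9Gl. The S1S2 libraries were far above all others, and WT and G9Gl overlapped. The difference was a log2 fold change of 2.70 ± 0.103 (SE, edgeR adjusted p = 2.80e-11) in S1S2. It was the fourth highest channel gene per kilobase in S1S2, at 2.89 RPKM, and 21st in WT, at 0.447 RPKM.

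Kcnmb4 (chr10:116417861-116473878), a beta subunit of the large-conductance BK channel, had 1.78, 1.52 and 1.71 CPM in WT, 2.25, 1.86 and 2.40 CPM in S1S2 and 0.211, 0.215 and 0.588 CPM in G9Gl. G9Gl lay below both others, by a log2 fold change of -2.27 ± 0.409 (SE, edgeR adjusted p = 1.10e-05) against WT, and replicate 3 held 18 of the 30 G9Gl counts. Without it the log2 fold change was -2.95. The BK pore gene, Kcnma1, was under the detection limit, with counts of 22, 4 and 3 in G9Gl and at most 6 elsewhere. Kcnn1, the small-conductance channel SK1, was called in no comparison.

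Two-pore potassium channels carry the background leak that holds the resting potential, and 3 of 14 genes were detected. In S1S2 edgeR called 0 of these 3 (2 had an unadjusted p under 0.05, and DESeq2 called 0). Kcnk10 (chr12:98429437-98578310), the mechanosensitive TREK-2, had 25, 28 and 37 counts in G9Gl, 0, 1 and 0 in WT and 2, 0 and 1 in S1S2. The ratio of G9Gl to WT was 97.1 (95% counting interval 17.0 to 3880, edgeR adjusted p = 5.39e-07), and its lower bound is the more usable figure, since it rests on 1 count in WT replicate 2. Its paralog Kcnk2, TREK-1, stood at 2.63 to 3.90 CPM in all lines and was not called.

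Kcnk5 (chr14:20140057-20181809), the pH-sensitive TASK-2, had 3.81, 4.96 and 4.12 CPM in WT, 7.63, 7.84 and 7.15 CPM in S1S2 and 3.12, 3.20 and 3.95 CPM in G9Gl. S1S2 lay above both others, which overlapped. Against WT this was a log2 fold change of 0.81 ± 0.117 (SE, edgeR adjusted p = 5.57e-05), under the fold limit, and G9Gl lay below S1S2 by a log2 fold change of -1.14 ± 0.113 (SE, edgeR adjusted p = 1.52e-06), a call lost in glmTreat (0.481). Of 15 inward rectifier genes, which pass potassium inward more easily than outward, Kcnj4 and Kcnj14 were detected. EdgeR called 0 of these 2 in either mutant against WT (0 had an unadjusted p under 0.05 and DESeq2 called 0), and 24.6% of the 75-base stretches of Kcnj14 also occur in another gene, Gm5522.

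**Figure D4:**
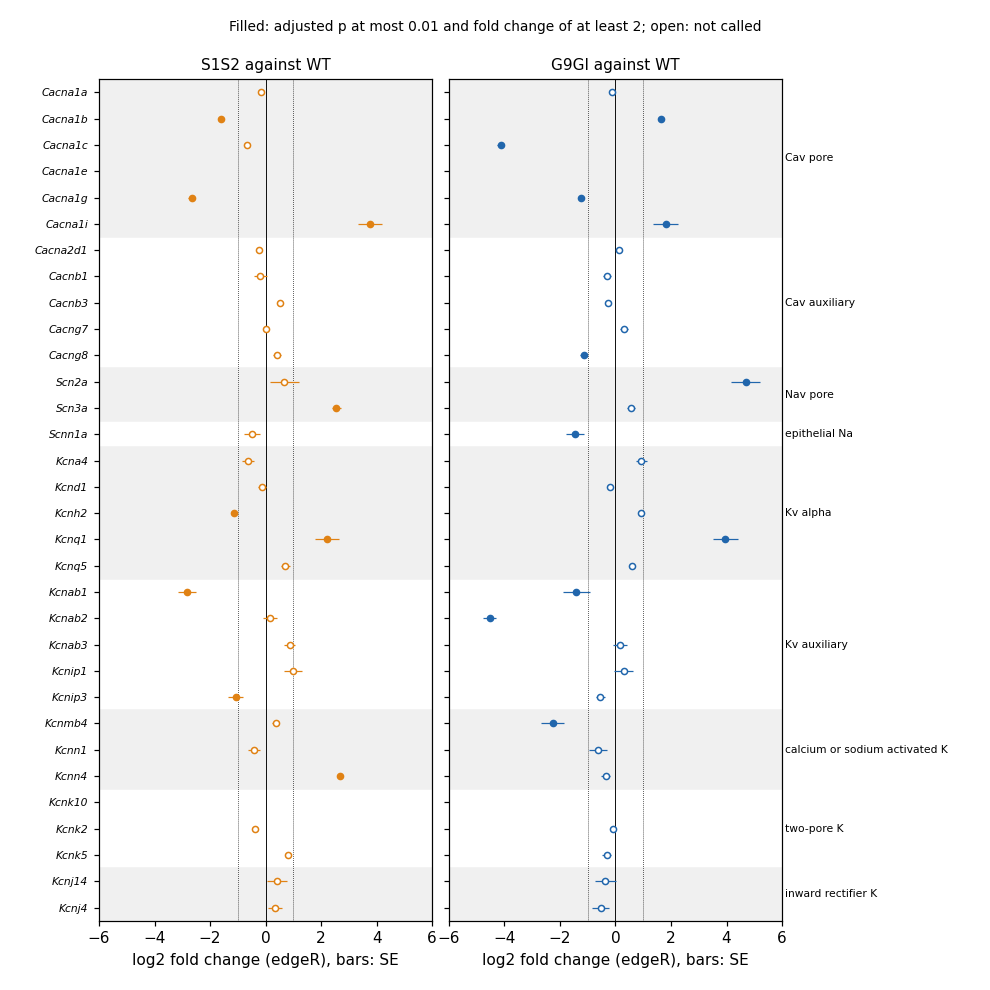
Log2 fold change against WT (edgeR; bars are SE) of 30 of the 34 channel genes in S1S2 and in G9Gl, filled where called, open otherwise. The genes not drawn include Cacna1e and Kcnk10, with at most 1 count in any WT library. Cacna1c and Kcnab2 lie below -4 in G9Gl, and Cacna1g and Kcnab1 lie below -2.5 in S1S2.

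By level per kilobase, the 10 leading genes in WT were Cacnb3, Cacna2d1, Cacna1g (3.09 RPKM), Cacng7 (2.98), Kcnh2 (2.78), Cacna1c (1.26), Kcnk5 (1.26), Kcnd1 (1.19), Kcnq5 (0.966) and Cacna1a (0.955). Neighbours in this order whose WT libraries did not overlap were Cacnb3 and Cacna2d1, Cacna2d1 and Cacna1g, Kcnh2 and Cacna1c, and Kcnd1 and Kcnq5. Cacnb3 and Cacna2d1 also led in both mutants, in reverse order in G9Gl. Cacna1c went from rank 6 in WT to 12 in S1S2 and 30 in G9Gl. Exon lengths come from the union of all annotated exons, so a gene that uses a short isoform is placed too low.

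Of 27 genes for proteins that bind or regulate these channels, 13 had enough counts to be tested. In each mutant 1 of the 13 was called against WT (7.69%, beside 9.0% of all tested genes in S1S2 and 10.2% in G9Gl). In S1S2, Amigo1, an adhesion protein that binds potassium channels, rose by a log2 fold change of 1.10 ± 0.150 (edgeR adjusted p = 7.54e-06). In G9Gl, Stac2, an adaptor of L-type calcium channels, fell by 1.89 ± 0.343 on the log2 scale (edgeR adjusted p = 3.02e-06). Between the mutants, 3 were called (23.1%, beside 13.1% of all tested genes). Gem, a small GTPase that inhibits calcium channels, was higher in G9Gl, and Stac2 and the membrane scaffold Ank3 were lower. The median log2 fold change of the 13 was 0.26 in S1S2 and 0.25 in G9Gl.

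Among 54 genes for other cation, chloride and intracellular channels, 35 were tested. In S1S2, 1 rose and 3 fell (11.4%, near the 9.0% of all tested genes), and in G9Gl, 6 rose and 3 fell (25.7%, beside 10.2%), with median log2 fold changes of 0.14 and 0.28. Piezo2, a channel opened by touch, had a mean of 18.8 CPM in WT, 5.67 in S1S2 and 38.8 in G9Gl. Nalcn, the sodium leak channel, had 4.56, 0.635 and 15.7 CPM. Both were called lower in S1S2 and higher in G9Gl. P2rx7, opened by ATP, was called higher in both mutants, at 0.492, 6.82 and 1.46 CPM. Also called in G9Gl were Ano1 and Itpr2 (higher) and Trpv4, Asic1 and Cngb1 (lower), and in S1S2 Trpm6 (lower).

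Markers of cell types were read beside these results. The 7 fibroblast markers summed to 8250 to 9560 CPM in WT, 5630 to 5690 in S1S2 and 6250 to 7070 in G9Gl, and all 7 were detected, with 5 called lower in S1S2 and 1 higher and 2 lower in G9Gl. The 5 smooth muscle markers summed to 576 to 689 CPM in WT, 170 to 182 in S1S2 and 1690 to 1820 in G9Gl, the same order of lines as Cacna1b and Kcnh2. Most of the sum was Acta2 (means of 267, 41.5 and 1039 CPM) and Tagln (318, 78.6 and 645), both called lower in S1S2 and higher in G9Gl, where Cnn1 was also called higher. Smtn was not called, at means of 56.7, 56.0 and 65.6 CPM, and Myh11, with too few counts to be tested, had 0.256, 0.133 and 0.0691 CPM, lowest in G9Gl. The L-type pore Cacna1c, which smooth muscle uses, was lowest in G9Gl, where this sum was highest.

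The 7 neuron markers summed to 25.0 to 27.2 CPM in WT, 37.9 to 42.3 in S1S2 and 22.2 to 29.8 in G9Gl, most of it Tubb3 (means of 24.9, 39.1 and 21.7 CPM). The sum hides other members. Stmn2 was called higher in G9Gl, with means of 0.0530 CPM in WT, 0 in S1S2 and 2.55 in G9Gl (edgeR adjusted p = 4.85e-09). Map2 was called lower in S1S2, with means of 0.814, 0.244 and 0.915 CPM. The other 4 had too few counts to be tested. Of these, Snap25 had no count in WT or S1S2 and 0.524 ± 0.239 CPM (SD, n = 3) in G9Gl, Syt1 none and 0.116 ± 0.0916, and Nefl means of 0.0543, 0.0243 and 0.384 CPM, while Rbfox3 was at 0 in every library. Stmn2, Snap25, Syt1 and Nefl thus had their highest means in G9Gl, as did Map2 by a small margin, while Tubb3 had its lowest mean there.

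The 8 markers of skeletal or heart muscle reached at most 6.43 CPM, in G9Gl, where all 3 libraries exceeded all others and both tested markers were called higher. The 4 epithelial markers reached 4.67 to 5.55 CPM in S1S2 and at most 0.548 elsewhere. The S1S2 sum was nearly all Krt8 (means of 0.139 CPM in WT, 4.68 in S1S2 and 0.221 in G9Gl). Epcam stood at 0.266, 0.198 and 0.0683 CPM, Cdh1 at 0.0688 or less, and Krt18 at 0.144 in S1S2 and 0 elsewhere, all with too few counts to be tested. The 3 endothelial markers reached at most 0.193 CPM in WT, 1.70 in S1S2 and 1.90 in G9Gl, from different genes. Kdr was called higher in S1S2 (means of 0.0215, 1.22 and 0.139 CPM in WT, S1S2 and G9Gl) and Cdh5 in G9Gl (0, 0.0828 and 1.01), and between the mutants both were called, in opposite directions. The 3 blood markers summed to 3.21 to 4.70 CPM over all lines, nearly all of it Cd68 (means of 4.36, 3.53 and 4.40 CPM). Ptprc and Lyz2 had at most 4 counts in any library. The part of any such cells or programmes in the channel results was not tested.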

How the data were processed

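Total RNA of 9 MEF libraries was prepared with a stranded kit that keeps all RNA classes and was sequenced in pairs of 75-base reads. The authors removed adapters (cutadapt), mapped the reads with STAR 2.5.2b on GRCm38 (build and version from the submitters' processing notes) and counted genes with TEtranscripts. The deposited values are whole-number counts per Ensembl gene, not normalized. The annotation release and the strand setting are not given in the sources used here.

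From these counts, edgeR 4.0.16 (R 4.3.3) gave TMM factors, CPM and a quasi-likelihood fit of all 9 libraries by line, after filterByExpr (15540 of 47937 genes kept), with Benjamini-Hochberg adjustment over all kept genes. A call was an adjusted p of at most 0.01 with a fold change of at least 2. Standard errors are from the spread of log2 CPM with a prior count of 2 and not from the edgeR fit. At low counts this prior narrows them. Gene symbols, exon lengths (for RPKM) and coordinates came from GENCODE M21 on GRCm38, matched by Ensembl ID. Counting intervals are exact binomial at 95%. The fit was also run on simulated counts with known changes, as a check of the code only, and the outcome is not given here. Replicates of a line differed by more than sampling noise in every pair (chi-square per degree of freedom 2.59 to 24.5), so none was treated as a repeat deposit of another.

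The members and gene lists were chosen with earlier results of these data known. Named with values are all members called in any comparison, the 10 of highest RPKM in WT, those with opposite directions in the mutants, and paralogs or subunit partners of these. Some genes are not reported here by name, but counts over the set include them. Values per library are given for called members with a mean of at least 1 CPM in some line, and for others where a result turns on them. The alternatives were DESeq2 1.42.0, size factors of DESeq2 in edgeR, plain library sizes, all genes with any count, stricter detection, a replicate block, only the libraries compared, a fold test (glmTreat, adjusted p of 0.05), an adjusted p of 0.05 without a fold limit, and leaving out each library.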

Additional observations from a re-analysis of the deposited data

Results flagged for a closer look

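In Cacna1b, Kcnh2 and Cacnb3, every S1S2 library lay on one side of every WT library and every G9Gl library on the other, with an adjusted p of at most 0.01 in both mutants. The direct test between the mutants gave log2 fold changes, G9Gl against S1S2, of 3.27 for Cacna1b (edgeR adjusted p = 5.72e-14), 2.06 for Kcnh2 (1.90e-12) and -0.77 for Cacnb3 (3.70e-09). Cacnb3, the beta subunit, ran opposite to both pore genes. Groups of 3 libraries are too small for a check of single outlying libraries.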

How the results depend on the processing

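Requiring 10 counts in every library kept 23 of the 34 channel genes. It left 7 calls in S1S2 against WT (2 higher), 5 in G9Gl against WT (2 higher, 3 lower) and 9 between the mutants (4 higher, 5 lower). The share of all genes called under this rule is not given here, so these counts have no background beside them. An adjusted p of 0.05 without a fold limit was met by 48.9% of all tested genes in S1S2 (25.3% as higher), 45.9% in G9Gl (24.1% as higher) and 53.3% between the mutants (26.5% as lower). It gave 20 of the 34 channel genes in S1S2 (11 higher), 12 higher in G9Gl and 14 lower between the mutants, with 9, 10 and 10 of the 13 channel partners and 23, 25 and 27 of the 35 other channels. The fold test, at an adjusted p of 0.05, called 5.59% of all tested genes in S1S2, 7.48% in G9Gl (2.21% as lower) and 9.77% between the mutants, and gave 4 lower channel genes in G9Gl, 0 partners in S1S2, 1 partner between the mutants and 4 other channels in G9Gl. DESeq2 called 2 partners in G9Gl. With 1 library left out, partners called ranged from 0 (without S1S2 replicate 3) to 2 (without WT replicate 3 or S1S2 replicate 1) in S1S2, and from 1 to 2 (without WT replicate 1 or G9Gl replicate 1) in G9Gl. No strong pairing by replicate number was seen. The correlation of same-numbered deviations across genes ran from -0.0686 to 0.124, and 2 of 9 exceeded 0.1. An effect shared by part of the genes could go unseen in it. A replicate block lost the call of Kcna4 between the mutants (log2 fold change 1.56, edgeR adjusted p = 0.016) and no other. Single genes gave 56 values, those with an adjusted p of at most 0.01 in the main fit. Values chosen in this way were unlikely to change direction. Over their 761 alternatives, 718 stayed on their side of the threshold, 43 changed side and 0 changed direction, and the cause was not tested. Stricter detection could be read for 34 of the 56 alone, since the genes of the others were filtered out.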

Other observations

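Genes within 200 kb of a called channel gene were read as further values. The 7 channel genes higher in G9Gl had 42 tested neighbours, of which 6 were called (14.3%, beside 10.2% of all tested genes) and 5 of these were higher. The 7 lower genes had 49, of which 6 were called (12.2%) and 5 lower. In S1S2 the 5 higher genes had 36 neighbours (5 called, or 13.9%, beside 9.0% of all tested genes, 4 higher) and the 6 lower genes 51 (8 called, or 15.7%, 6 lower). Some neighbours overlap a channel gene, and no test was made.

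Cacna1b lies between Ehmt1 on one side and Gm13415, Pax8 and Psd4 on the other. Pax8, a transcription factor of thyroid and kidney, had means of 0.0110 CPM in WT, 0.0710 in S1S2 and 4.75 in G9Gl. Psd4 had 0.0215, 0.0278 and 6.88 CPM, and Gm13415 had 0.307, 1.41 and 23.0 CPM. In S1S2, where Cacna1b was lower, Dph7 in the same window had 7.76 CPM against 20.6 in WT and 18.4 in G9Gl.

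Around Kcnq1, in an imprinted domain, Cdkn1c had means of 20.9 CPM in WT, 50.6 in S1S2 and 20.0 in G9Gl, and Phlda2 had 0.530, 1.22 and 0.523 CPM. Tspan32 had 0.800, 0.142 and 3.10 CPM, so its order of lines was not that of Kcnq1.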
